A study of Mus musculus with 12 samples.

Results

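The globin and red cell genes described here are 9 rows of a count table of 24470 genes, selected by gene symbol: the adult β-globins Hbb-bs and Hbb-bt, the adult α-globins Hba-a1 and Hba-a2, the embryonic globins Hbb-y, Hbb-bh1 and Hba-x, the heme synthesis gene Alas2 and the membrane gene Slc4a1. All 9 were found, and all 9 passed the filter on low counts that left 15572 genes to be tested. They were read for the blood carried by each testis pool and for the balance of embryonic and adult globin. RNA was measured by sequencing in whole mouse testes at E14.5, in 6 control pools and 6 cKO pools of 3 testes each. Control embryos were Nr2f2 f/f and cKO embryos were Wt1 CreER x Nr2f2 f/f, so that both groups carried the floxed allele of Nr2f2, a nuclear receptor of interstitial cells, and only the cKO embryos carried Cre. This Cre is activated by tamoxifen, which was given to the pregnant females a few days before collection. It is made where Wt1 is active, which includes somatic progenitors of the gonad. The paper attributes the later death of cKO embryos to heart conditions. Deletion in other tissues of the embryo, and any part of it in the blood content of the testis, was not tested. The labels do not say which litters the pools came from, so p-values measure the spread between pools of each genotype.

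Hemoglobin is a tetramer of α-like and β-like globin chains, each holding a heme. The first red cells of the mouse embryo come from the yolk sac, circulate with a nucleus and make the embryonic chains Hbb-y, Hbb-bh1 and Hba-x beside the adult α chains, whereas red cells from the fetal liver make the adult chains. At mid-gestation both kinds circulate together, and the exchange of embryonic for adult chains in blood is called globin switching. A testis makes no red cells of its own, so these RNAs report the blood in its vessels and any erythroid cells that come with the dissected tissue.

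The promoters of these genes are shown as sequence background, and because copies of a globin gene can share their promoter. Their bearing on the levels in these pools was not tested. RefSeq promoter entries (GRCm38.p6) were matched for 7 of the 9 genes, namely the others than Hbb-bh1 and Slc4a1. The 210 bases before the transcription start of 6 of them are printed 5′ to 3′ on the strand of the gene, with capitals for the motifs searched on both strands: CACCC (bound by Klf1 and related factors), GATAA (bound by GATA factors), CCAAT (a general promoter box), TATAA (the core of a TATA box) and AGGTCA (the half-site of nuclear receptors).
Hbb-bs (chr7:103827929-103828138, minus strand): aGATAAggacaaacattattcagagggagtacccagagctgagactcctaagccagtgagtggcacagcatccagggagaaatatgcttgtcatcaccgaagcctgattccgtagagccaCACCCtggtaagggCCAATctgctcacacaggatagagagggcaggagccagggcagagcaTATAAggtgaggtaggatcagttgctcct
Hbb-bt (chr7:103813924-103814133, minus strand): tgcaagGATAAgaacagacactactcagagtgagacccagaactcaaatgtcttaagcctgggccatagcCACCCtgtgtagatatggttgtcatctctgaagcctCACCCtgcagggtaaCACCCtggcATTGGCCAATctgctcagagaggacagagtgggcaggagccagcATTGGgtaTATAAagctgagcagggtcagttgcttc
Hbb-y (chr7:103853208-103853417, minus strand): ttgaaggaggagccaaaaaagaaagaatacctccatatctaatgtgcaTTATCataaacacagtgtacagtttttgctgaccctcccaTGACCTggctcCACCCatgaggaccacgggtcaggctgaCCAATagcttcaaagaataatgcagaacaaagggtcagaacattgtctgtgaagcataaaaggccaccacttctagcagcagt
Hba-a1 (chr11:32283462-32283671, plus strand): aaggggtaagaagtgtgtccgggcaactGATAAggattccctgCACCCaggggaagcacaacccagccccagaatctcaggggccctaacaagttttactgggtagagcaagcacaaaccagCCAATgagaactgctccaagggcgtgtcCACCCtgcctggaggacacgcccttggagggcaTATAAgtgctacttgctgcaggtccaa
Hba-x (chr11:32276390-32276599, plus strand): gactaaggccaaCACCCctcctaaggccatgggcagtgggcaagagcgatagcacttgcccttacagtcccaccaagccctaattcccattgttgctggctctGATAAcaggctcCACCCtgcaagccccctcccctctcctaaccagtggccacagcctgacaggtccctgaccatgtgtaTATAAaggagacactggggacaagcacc
Alas2 (chrX:150547207-150547416, plus strand): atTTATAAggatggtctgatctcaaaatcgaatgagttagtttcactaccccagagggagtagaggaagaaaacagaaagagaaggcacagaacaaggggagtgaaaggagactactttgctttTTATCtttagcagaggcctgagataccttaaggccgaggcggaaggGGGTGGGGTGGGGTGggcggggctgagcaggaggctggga
CACCC was present in the 250 bases before the start in 7 of 7 genes, GATAA in 7, TATAA in 6 and CCAAT in 5. Over all 32851 promoters of the same length, 52% held CACCC, 22.6% GATAA, 22.8% TATAA and 33.8% CCAAT. The half-site AGGTCA occurred in 2 of the 7, in Hbb-y from -122 to -117 on the opposite strand (TGACCT as printed) and in Alas2 from -245 to -240, outside the printed stretch, against 14% of all promoters. Neighbouring capitals in Alas2 and Hbb-bt include overlapping or adjoining matches, such as TATAA on both strands at -208 to -203 of Alas2. These are matches of letters in a window and were not measured as binding sites.

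The same families hold near-identical copies, which limits how counts can be divided between them. The transcripts of Hba-a1 and Hba-a2 had 1 mismatch in 538 aligned bases, and 56.5% of the 100-base windows of Hba-a1 occurred letter for letter in Hba-a2. Hbb-bs and Hbb-bt were 95.3% identical where aligned, with an identical run of 430 bases, and 62.6% of Hbb-bs windows occurred in Hbb-bt. No 100-base window of Hbb-bs was found in Hbb-y. The promoter entries of Hba-a1 and Hba-a2 shared an identical run of 297 of 300 bases, whereas those of Hbb-bs and Hbb-bt were 79.1% identical where aligned. The authors' counting options do not include the one for reads that align to several places, which the counting tool leaves out by default. Adult globin counts may therefore be low relative to those of Hbb-y, by an amount that was not measured, and the division within either adult pair is uncertain. Levels compared between globins and embryonic shares hold within this limit, and each adult pair was also tested as a sum.

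Total counts per library ran from 7044531 to 59404778, and the smallest count of any of the 9 genes in a library was 29, for Hbb-bh1. Values are CPM, counts put on a common library size with the TMM factors of edgeR, and a gene was called when its adjusted p was under 0.05 by edgeR's quasi-likelihood test over all genes. Log2 fold changes are cKO relative to control, with their standard error (SE). Nr2f2 lay between 162.5 and 186 CPM in control and between 50.2 and 119 CPM in cKO pools, below every control in 6 of 6. Of the genes tested, 1266 were called (8.13%), 4.85% lower and 3.28% higher. Some libraries stood apart. Xist, the RNA of the inactive X chromosome of XX cells, was at 304 to 891 CPM in control replicate 1 and cKO replicates 3, 5 and 6 and at 5.15 to 7.68 CPM in the other 8, while the Y-linked Ddx3y was at 58.3 to 75.2 CPM and 78.7 to 106 CPM in the same libraries. The fetal liver genes Alb and Afp were at 99.7 and 130 CPM in cKO replicate 4 and at 60.3 and 62.9 CPM in cKO replicate 6, against at most 22.5 and 26.1 CPM elsewhere. Markers of the testis were present in every pool, with a summed level of Amh, Sox9, Ddx4, Cyp17a1 and 8 others between 2935 and 4966 CPM.

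Globin RNA was a small part of these libraries and was lower on average in cKO testes, most clearly for the adult β-globin Hbb-bs. The 7 globins together took 0.148% to 0.220% of all counts in control pools and 0.120% to 0.180% in cKO pools. Their summed level was 1784 ± 290.2 CPM over control pools and 1408 ± 235 CPM over cKO pools (mean ± SD of 6), and 4 of 6 cKO pools lay below every control pool. The highest pool was control replicate 4 (2219 CPM) and the lowest cKO replicate 3 (1183 CPM). Of the 9 genes, 1 was called lower and 0 higher, where 4.85% and 3.28% of all genes were called. Log2 fold changes were negative for 7 of the 9, 6 of the 7 globins among them, and 3 had an unadjusted p under 0.05. Their median was -0.23, beside 0.00 for all genes tested. DESeq2 called 2 of the 9 lower, Hbb-bs and Hba-a2, where it called 6.27% of all genes lower. In RNA of whole testes, fewer blood cells and less globin RNA per cell cannot be told apart.

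**Figure D1:**
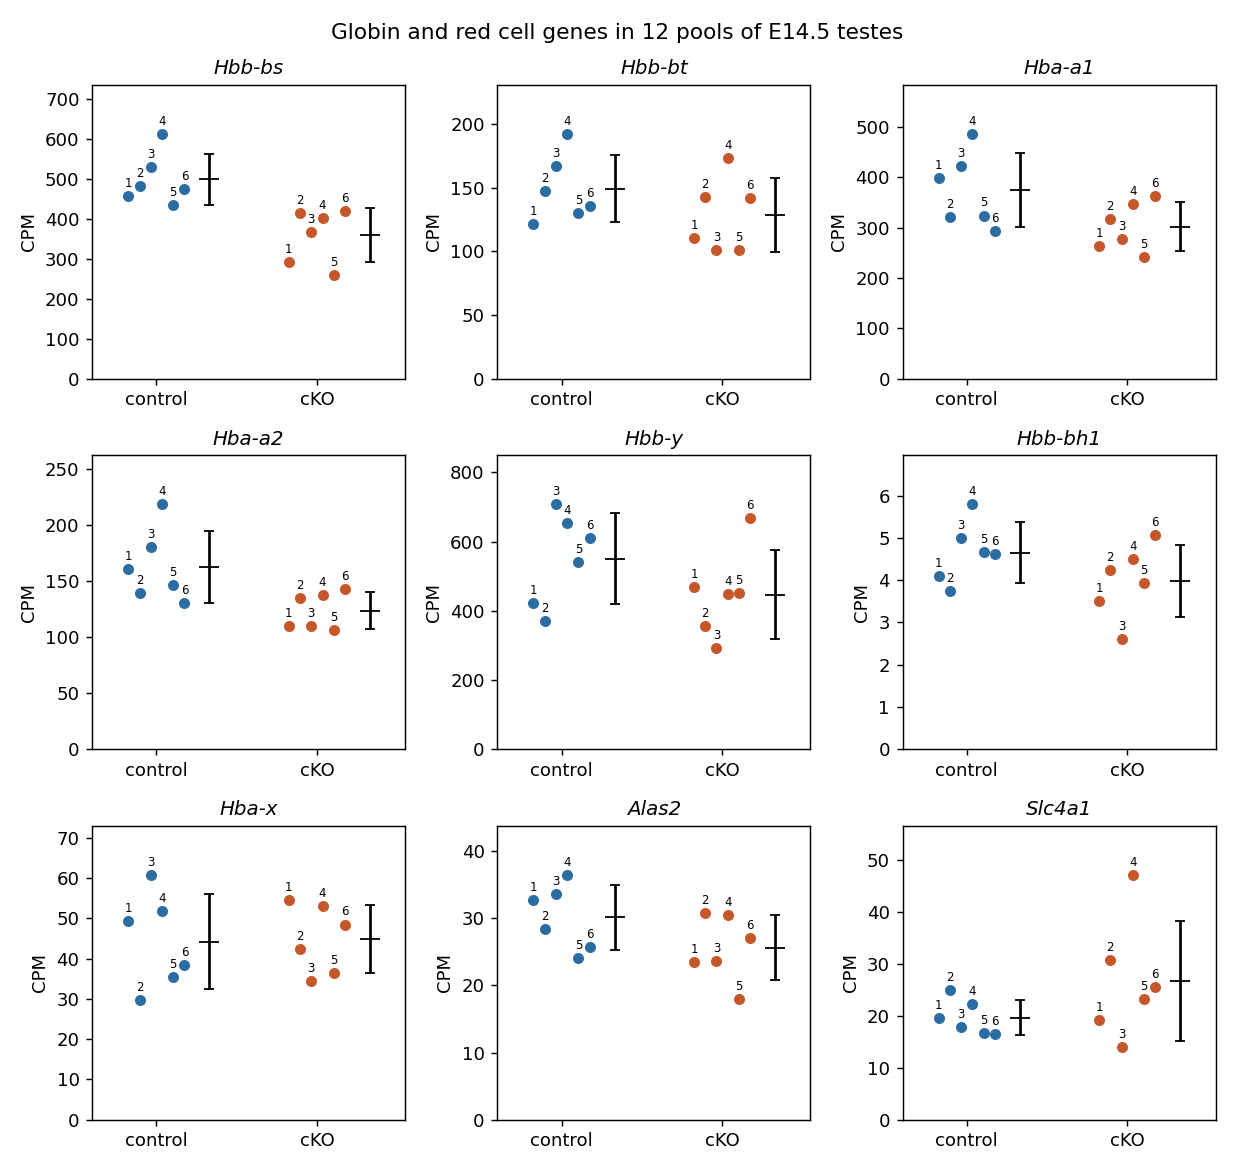
CPM of each of the 9 genes (vertical axes from 0) in the 6 control pools (blue) and 6 cKO pools (orange), with the replicate number over each point and the mean ± SD beside each group. Only for Hbb-bs did the cKO pools (259 to 420 CPM) all lie below the control pools (435 to 612 CPM), and cKO replicate 4 stood highest for Slc4a1 at 47.1 CPM.

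Levels of different genes were compared per kilobase of coding sequence. Counts were made on gene models that also hold untranslated sequence, so this scale is approximate. Hba-x, Hba-a1 and Hba-a2 each have 429 coding bases, in transcripts of 801, 699 and 554 bases. The order of levels, the embryonic shares and the α-like to β-like ratio hold within this limit as well. In control testes the order of the means was Hbb-y (1241 CPM per kb), Hbb-bs (1122), Hba-a1 (872), Hba-a2 (379), Hbb-bt (336), Hba-x (103), Alas2 (17.1), Hbb-bh1 (10.5) and Slc4a1 (7.03). The ranges of Hbb-y, Hbb-bs and Hba-a1 overlapped from each to the next, as did those of Hba-a2 and Hbb-bt and of Hbb-bh1 and Slc4a1, while the steps from Hba-a1 to Hba-a2, from Hbb-bt to Hba-x, from Hba-x to Alas2 and from Alas2 to Hbb-bh1 exceeded the spread between pools. In cKO testes the same genes led, at 1007 CPM per kb for Hbb-y, 808 for Hbb-bs and 703 for Hba-a1. Hbb-bt (289.6) then stood beside Hba-a2 (287.6), and Slc4a1 (9.55) beside Hbb-bh1 (8.96), each pair with overlapping ranges.

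Hbb-bs and Hbb-bt encode the adult β chains. They lie on the minus strand of chromosome 7 of mm10, at chr7:103826523-103827928 and chr7:103812524-103813923, with 3 exons each. Hbb-bs (Entrez Gene 100503605) had 458, 481, 528, 612, 435 and 474 CPM in control replicates 1 to 6. In cKO replicates 1 to 6 it had 291, 414, 367, 402, 259 and 420 CPM. Every cKO pool was below every control pool, with the highest cKO pool only slightly under the lowest control. It was the only one of the 9 genes whose groups did not overlap, as 5.52% of all genes tested did not, 3.13% in the lower direction. The means were 498 ± 63.8 CPM for control and 359 ± 68.0 CPM for cKO (SD, n = 6 pools each), which gave -0.47 as log2 fold change (SE 0.12, adjusted p = 0.0307 from edgeR) or 27.9% less RNA in cKO testes. The call was lost without the 4 libraries with Xist over 100 CPM (-0.45, edgeR adjusted p = 0.0692) and in 7 of the 12 fits that left out 1 pool, with the direction unchanged in all 12. It held without the 2 libraries with Alb over 50 CPM (-0.58, edgeR adjusted p = 0.0405).

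The second adult β-globin showed a smaller difference. Hbb-bt had 122, 148, 167, 192, 130 and 136 CPM in control replicates 1 to 6 and 111, 143, 101, 174, 101 and 142 CPM in cKO replicates 1 to 6. The groups overlapped, with 3 of 6 cKO pools below every control. The log2 fold change was -0.21 (SE 0.15, adjusted p = 0.375 from edgeR). When the counts of Hbb-bs and Hbb-bt were added before the test, because of their shared sequence, the log2 fold change was -0.41 and was not called (edgeR adjusted p = 0.0588). Hbb-bs made up 77.0 ± 1.15% of the adult β-globin counts in control and 73.6 ± 2.94% in cKO pools (SD, n = 6 pools each), and in 5 of 6 cKO pools the share was below every control. The exception was cKO replicate 3, at 78.4%.

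Hba-a1 and Hba-a2 encode the adult α chains from neighbouring genes on the plus strand of chromosome 11, at chr11:32283672-32284486 and chr11:32296492-32297310. Hba-a1 had 399, 321, 422, 486, 324 and 294 CPM in control replicates 1 to 6 and 263, 318, 277, 347, 241 and 363 CPM in the cKO replicates. Of the cKO values, 3 lay below every control and 3 within the control range. The log2 fold change was -0.31 (SE 0.13, adjusted p = 0.161 from edgeR). Hba-a2 had 160, 140, 180, 218, 146 and 130 CPM in control and 110, 135, 110, 137, 106 and 143 CPM in cKO replicates 1 to 6. Again 3 cKO pools lay below every control, and the log2 fold change was -0.40 (SE 0.12). Hba-a2 did not pass the threshold in edgeR (adjusted p = 0.0654) and passed it in DESeq2 (adjusted p = 0.0275). With the counts of both genes added, the log2 fold change was -0.34 (edgeR adjusted p = 0.124). Hba-a1 made up 69.7 ± 0.914% of the counts of both genes in control and 70.9 ± 0.926% in cKO pools, a difference of 1.17 points with 3 of 6 cKO pools above every control.

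**Figure D2:**
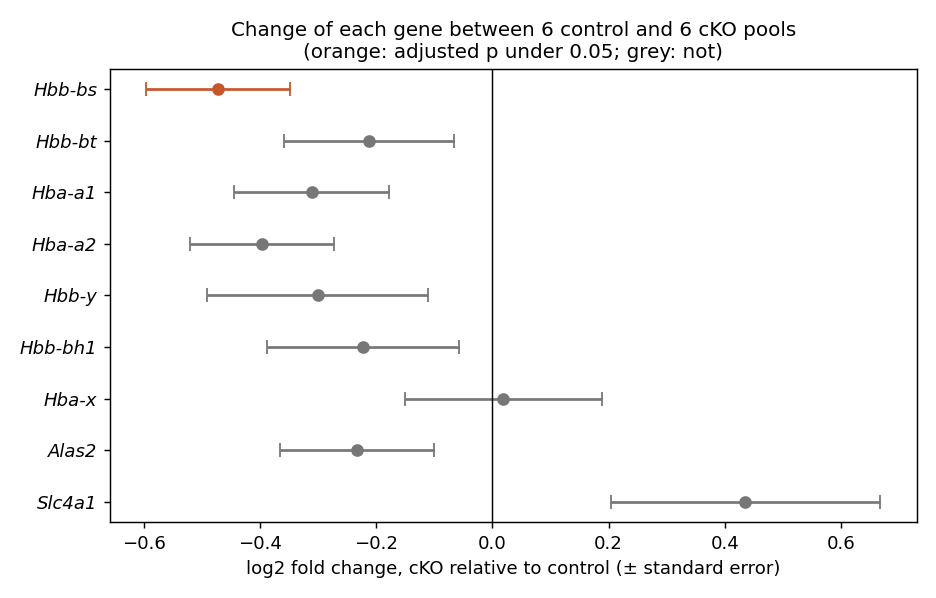
Log2 fold change of each gene in cKO relative to control testes (horizontal axis, ± standard error, n = 6 pools each), with called genes in orange and the others in grey. Hbb-bs is the only gene called, at -0.47, and Slc4a1 lies farthest to the right at 0.44.

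Hbb-y, the main embryonic β chain (chr7:103851754-103853207), had the highest mean per kb of coding sequence in both groups as counted, with a range that overlapped that of Hbb-bs. It had 423, 371, 707, 652, 540 and 611 CPM in control replicates 1 to 6. In cKO replicates 1 to 6 it had 468, 355, 292, 448, 451 and 667 CPM. Both groups spanned a similar range, with 2 cKO pools below every control. The log2 fold change of -0.30 was within the spread (SE 0.19, adjusted p = 0.338 from edgeR). Hbb-bh1, the minor early β-like chain (chr7:103841638-103843162), had 3.74 to 5.79 CPM in control (median 4.65) and 2.61 to 5.07 CPM in cKO pools (median 4.08), and its log2 fold change was -0.22 (SE 0.17, adjusted p = 0.414 from edgeR). Hbb-bh1 stood at 0.865 ± 0.117 counts per 100 of Hbb-y in control and 0.912 ± 0.166 in cKO pools.

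Hba-x, the embryonic α chain (chr11:32276600-32278116), did not share the lower mean of the other globins. It had 49.4, 29.6, 60.8, 51.8, 35.5 and 38.3 CPM in control replicates 1 to 6. In cKO replicates 1 to 6 it had 54.5, 42.4, 34.4, 53.1, 36.5 and 48.5 CPM. The 2 sets of values covered the same range. The log2 fold change was 0.02 (SE 0.17, adjusted p = 0.960 from edgeR), and its sign turned negative in 6 of the 12 fits that left out 1 pool and without the 2 libraries with Alb over 50 CPM.

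The share of embryonic chains in each family describes the balance of embryonic and adult globin RNA in each pool, as counted. In RNA of whole testes, the stage of globin switching and the mix of red cells in the tissue cannot be told apart. Within the β family, Hbb-y and Hbb-bh1 made up 42.4, 37.3, 50.6, 45.0, 49.1 and 50.3% in control replicates 1 to 6 and 54.0, 39.2, 38.6, 44.0, 55.8 and 54.5% in cKO replicates 1 to 6. The cKO pools lay in 2 sets, replicates 2, 3 and 4 at or below 44.0% and replicates 1, 5 and 6 above every control. The group means were 45.8 ± 5.25% and 47.7 ± 7.98% (SD, n = 6 pools each), and their difference of 1.91 points was smaller than the SD of either group. It was -0.70 points without the 4 libraries with Xist over 100 CPM, and with 1 pool left out it ran from 0.213 (without control replicate 2) to 3.72 (without cKO replicate 3). Within the α family, Hba-x made up 8.12, 6.04, 9.18, 6.86, 7.02 and 8.29% in control and 12.7, 8.57, 8.17, 9.87, 9.52 and 8.76% in cKO replicates 1 to 6. Here 3 of 6 cKO pools exceeded every control, and the means were 7.59 ± 1.14% and 9.60 ± 1.66%, a difference of 2.02 points. Counting error was smaller than these spreads, since the 95% Wilson half-width of a share was at most 1.26 points in the β family and 1.08 points in the α family. These intervals cover counting error only.

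Other ratios between globins overlapped between the groups. The α-like to β-like ratio was 0.503 ± 0.0777 in control and 0.522 ± 0.0423 in cKO pools (SD, n = 6 pools each). Its highest and lowest values were both in control pools, at 0.626 in replicate 1 and 0.390 in replicate 6. Hbb-y over Hbb-bs was 1.11 ± 0.225 in control and 1.28 ± 0.413 in cKO pools, and cKO replicates 1, 5 and 6 (1.61, 1.74 and 1.59) exceeded the highest control (1.34). The shares and ratios were not tested, because each is built from genes reported singly above.

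**Figure D3:**
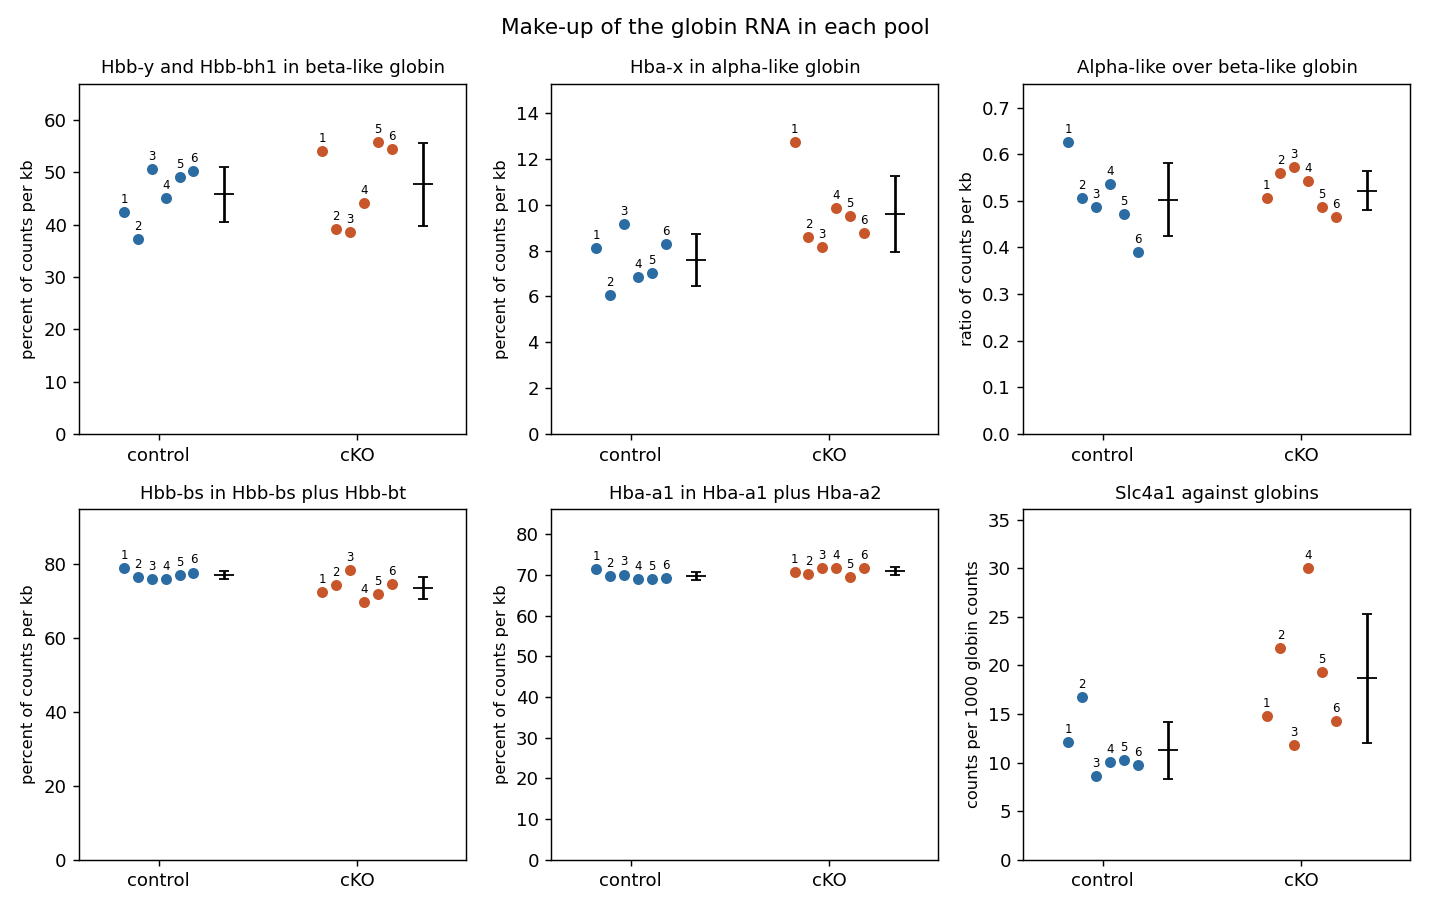
Composition of globin RNA in each pool (control blue, cKO orange, replicate numbers over the points, mean ± SD beside them): shares in percent of counts per kb of coding sequence, the α-like to β-like ratio, and Slc4a1 counts per 1000 globin counts. The embryonic β share overlaps between groups (37.3 to 50.6% and 38.6 to 55.8%), and cKO replicate 1 is highest for the embryonic α share at 12.7%.

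Alas2, the erythroid 5-aminolevulinate synthase that starts heme synthesis in red cells, lies on chromosome X at chrX:150547417-150570622 with 11 exons. It had 32.7, 28.4, 33.6, 36.5, 24.0 and 25.7 CPM in control replicates 1 to 6. In cKO replicates 1 to 6 it had 23.6, 30.8, 23.7, 30.6, 18.0 and 27.1 CPM. Its cKO values tended low, with 3 of 6 below every control, and the log2 fold change was -0.23 (SE 0.13, adjusted p = 0.284 from edgeR). Without the 4 libraries with Xist over 100 CPM it was -0.08 (edgeR adjusted p = 0.745). Relative to the globins it was steady, at 17.0 ± 2.14 counts per 1000 globin counts in control and 18.3 ± 2.73 in cKO pools. Of 15 genes of heme synthesis and its carriers tested, 2 were called lower and 2 higher, and their median was -0.01. Alas1, the synthase of other tissues and of steroidogenic cells, averaged 220 ± 28.2 CPM over control pools and 132 ± 30.7 CPM over cKO pools (log2 fold change -0.74, edgeR adjusted p = 0.00595). Abcb10, a mitochondrial transporter, was also lower (-0.39, edgeR adjusted p = 0.0145). Cpox, a late enzyme of the pathway, was higher (0.38, edgeR adjusted p = 0.0274), as was the mitochondrial iron importer Slc25a37 (0.50, edgeR adjusted p = 0.0415).

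Of 18 genes of iron handling and heme breakdown tested, 1 was called lower and 1 higher, with a median of -0.04. Slc40a1, the iron exporter ferroportin, rose in cKO testes, to 102 ± 8.57 CPM against 64.0 ± 11.8 CPM in control pools (log2 fold change 0.67, edgeR adjusted p = 0.00172). Flvcr2, a transporter of the family that includes the heme exporter Flvcr1, fell from 14.9 ± 0.771 to 9.72 ± 1.44 CPM (-0.62, edgeR adjusted p = 0.00225). DESeq2 also called Trf, the iron carrier transferrin, higher (edgeR 0.83, adjusted p = 0.0584).

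Slc4a1, the band 3 anion exchanger of the red cell membrane (chr11:102348820-102365281, minus strand, 20 exons), had a positive log2 fold change, unlike 6 of the 7 globins. It had 19.6, 25.0, 17.9, 22.2, 16.6 and 16.5 CPM in control replicates 1 to 6 and 19.2, 30.7, 14.0, 47.1, 23.2 and 25.6 CPM in cKO replicates 1 to 6. cKO replicates 2, 4 and 6 exceeded every control while cKO replicate 3 was below every control. The log2 fold change was 0.44 (SE 0.23, adjusted p = 0.253 from edgeR), and it depended on which libraries were kept. It was 0.13 without the 2 libraries with Alb over 50 CPM (edgeR adjusted p = 0.738), 0.19 without cKO replicate 4 alone (0.560), 0.57 without cKO replicate 3 (0.114) and 0.71 without the 4 libraries with Xist over 100 CPM (0.0894). Per 1000 globin counts there were 11.3 ± 2.91 of Slc4a1 in control and 18.7 ± 6.64 in cKO pools, with cKO replicate 4 at 30.1.

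Other genes of the red cell membrane and its skeleton mostly had positive values without passing the test. Of 19 tested, 1 was called higher and 0 lower, 15 were positive, and the median was 0.35. The called gene was Icam4, a blood group glycoprotein of low level (0.618 ± 0.127 CPM over control pools and 1.06 ± 0.261 CPM over cKO pools, log2 fold change 0.74, edgeR adjusted p = 0.0424), which DESeq2 did not call. DESeq2 called 1 other gene of the list, Add2, higher (edgeR 0.47, adjusted p = 0.0840). The median of this list was 0.11 without cKO replicate 4 and 0.15 without the 2 libraries with Alb over 50 CPM. Of 18 erythroid transcription factors tested, 1 was called higher and 0 lower, with a median of 0.15. The median was 0.30 without the 4 libraries with Xist over 100 CPM and 0.07 without cKO replicate 4. The called gene was Sox6 (0.44, edgeR adjusted p = 0.00415), at 34.9 ± 2.22 and 47.3 ± 5.59 CPM, a factor that many other cells of the embryo also use. Klf1, the activator of adult β-globin, was at 1.69 ± 0.634 and 2.17 ± 1.22 CPM (0.37, edgeR adjusted p = 0.532), and Gata1, the GATA factor of the red cell lineage, at 1.80 ± 0.873 and 2.06 ± 0.583 CPM (0.15, edgeR adjusted p = 0.772). Of 18 other erythroid genes tested, 0 were called by edgeR, 4 had an unadjusted p under 0.05 and 3 were called by DESeq2 (Epor, Blvrb and Mkrn1), and the median was -0.03. Hemgn and Car2, listed first among them, had log2 fold changes of 0.63 and 0.25 (edgeR adjusted p = 0.406 and 0.548).

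From pool to pool, the adult globins and Alas2 were highly correlated, and Slc4a1 was less so over all 12 pools. Hba-a1 and Hba-a2, whose transcripts share long identical stretches, had r = 0.97 over 12 pools, Hba-a1 and Hbb-bs r = 0.86, and the embryonic pair Hbb-y and Hbb-bh1 r = 0.84. Correlations of the 8 other genes with Slc4a1 ran from -0.08 to 0.48 on log2 CPM, and none was called in a permutation test with 100000 resamples (adjusted p = 0.897 for all 8, Spearman adjusted p from 0.801 to 0.816). Hbb-bt had the highest (r = 0.476, rho = 0.497, permutation p = 0.118), which was 0.0976 without the 2 pools farthest from the median of Slc4a1. As deviations from each genotype's mean, all 8 correlations with Slc4a1 were positive, at 0.748 for Hbb-bt, 0.551 for Hbb-bh1, 0.529 for Alas2, 0.473 for Hba-a2, 0.453 for Hba-a1, 0.403 for Hbb-bs, 0.227 for Hba-x and 0.0981 for Hbb-y. Of these, Hbb-bt was called (permutation adjusted p = 0.0258) and the other 7 were not (0.204 to 0.767). By Spearman, Hbb-bt was not called (rho = 0.678, permutation adjusted p = 0.131). Deviations were permuted across all 12 pools with no allowance for the genotype means taken out, so these p-values may be too small. Without the 2 pools farthest from the median of Slc4a1, r of Hbb-bt was 0.543 over the other 10 and was not called (permutation adjusted p = 0.297).

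Correlations with Alas2, looked up after the values were seen, are given as a description with no test. Hba-a1 had r = 0.901 and rho = 0.874 over 12 pools, Hba-a2 r = 0.848 and rho = 0.818, Hbb-bs r = 0.844 and rho = 0.755, and Hbb-bt r = 0.812 and rho = 0.790. Without the 2 pools farthest from the median of Alas2, r was 0.833, 0.773, 0.609 and 0.669 for the same 4 genes. As deviations from the mean of each genotype, r was 0.876, 0.824, 0.854 and 0.772. The embryonic chains had lower values over 12 pools, at r = 0.526 for Hba-x, 0.514 for Hbb-bh1 and 0.268 for Hbb-y.

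**Figure D4:**
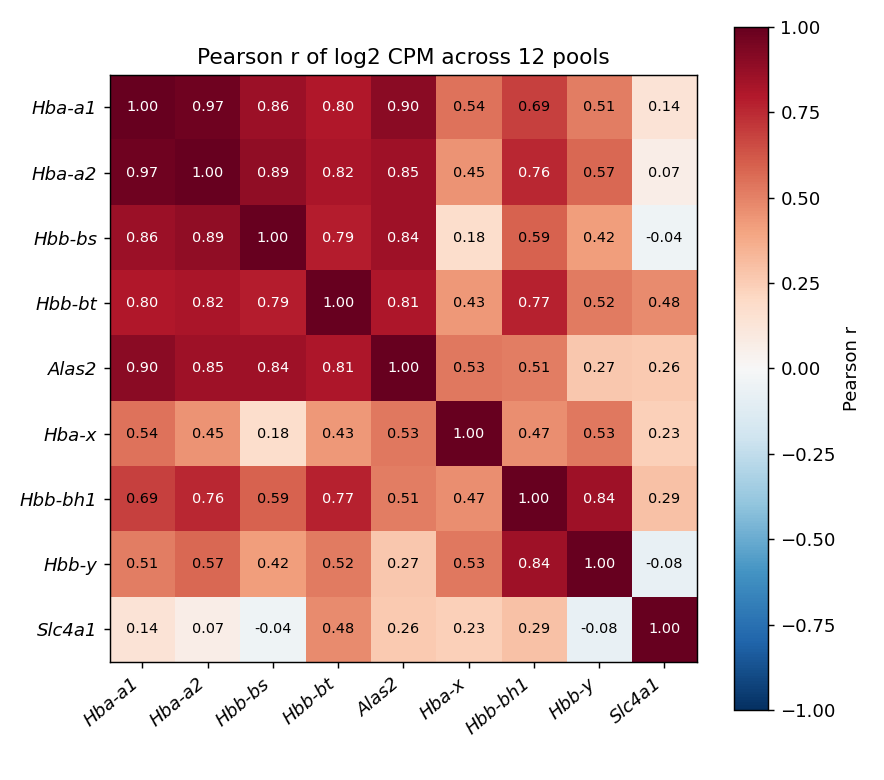
Pearson r of log2 CPM over the 12 pools for each pair of the 9 genes (red positive, blue negative, value in each cell). The adult globins and Alas2 form a block with r of 0.79 or more, Hbb-y and Hbb-bh1 pair at 0.84, and Slc4a1 lies between -0.08 and 0.48 with all others.

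The genes whose levels were most like Slc4a1 were themselves red cell genes. Among genes averaging 1 CPM or more, looked up after the values were seen, 7 of the 8 with the highest r were Ermap (r = 0.949 over 12 pools), Kel (0.930), Hemgn (0.916), Car2 (0.905), Klf1 (0.883), Trim10 (0.873) and Rhag (0.844). They include the Kell and Rh-associated blood group proteins, carbonic anhydrase 2 and the factor Klf1. These 7 were all highest in cKO replicate 4, where Ermap had 11.3 CPM (2.35 to 6.41 elsewhere), Kel 7.41 (1.16 to 3.33) and Klf1 4.33 (0.833 to 2.81). Their r with Slc4a1 was between 0.666 and 0.911 over the 11 other pools, on log2 of CPM plus 0.1. The logs of the 12-pool values used another prior, so the 2 sets are not strictly alike. With Hbb-bs the same 7 genes had r between -0.18 and 0.14 over 12 pools. Of 50 erythroid list genes averaging 1 CPM or more, 21 had r above 0.5 with Slc4a1, 8 with Hbb-bs and 0 with both. The share of all genes with r above 0.5 was not computed. These r pool both genotypes, between which Slc4a1 and Hbb-bs had log2 fold changes of opposite sign. Slc4a1 and Hbb-bs themselves had r = -0.04 over 12 pools and 0.40 as deviations from each genotype's mean. Such deviations were not correlated for the 50 genes. These correlations share libraries and scaling and are given as a description.

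cKO replicate 4 was the pool with the most fetal liver RNA as well. All 10 genes of the hepatocyte list were highest there. Their sum was 289 CPM in cKO replicate 4 and 156 CPM in cKO replicate 6, and it was 13.8 to 20.03 CPM in the other cKO pools and 10.9 to 64.3 CPM in control pools. Mpo, a granule enzyme of myeloid progenitors, was at 18.3 CPM in cKO replicate 4 and at most 7.12 CPM elsewhere. Hbb-bs (402 CPM) and Hba-a1 (347 CPM) were not the highest of the cKO pools there, since cKO replicate 6 exceeded them with 420 and 363 CPM, whereas Hbb-bt was highest of the cKO pools in replicate 4 (174 CPM, against at most 143 CPM in the others). Of 8 hepatocyte genes tested, 0 were called by edgeR or by DESeq2 and 1 had an unadjusted p under 0.05, and their median of 1.40 was -0.62 without the 2 libraries with Alb over 50 CPM. The part of liver-derived cells in the values of Slc4a1 and the genes like it was not tested.

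**Figure D5:**
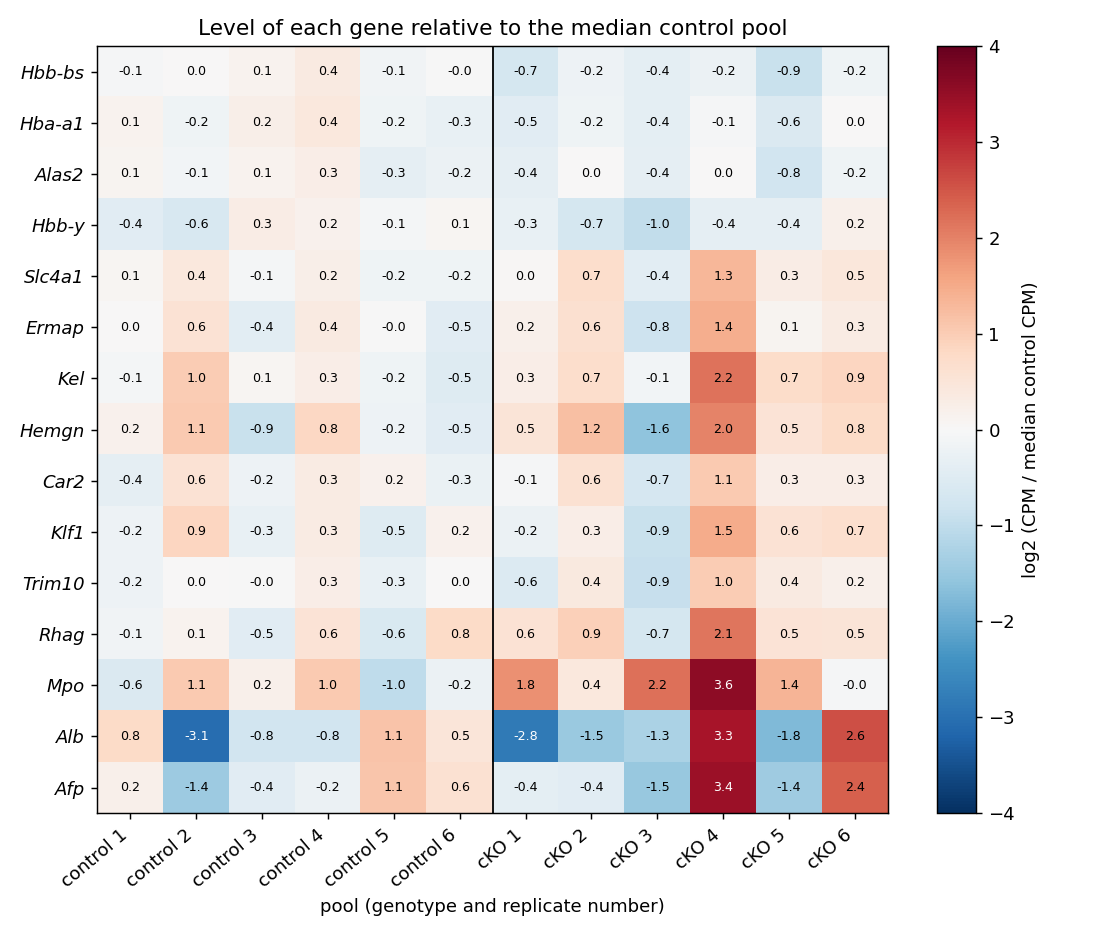
Log2 ratio of CPM to the median control pool (color and number in each cell) for globins, Alas2, Slc4a1, 7 genes like Slc4a1, Mpo, Alb and Afp, in 6 control pools (left of the line) and 6 cKO pools. cKO replicate 4 stands out from Slc4a1 downwards, whereas Hbb-bs is low in all cKO pools, most in replicates 1 and 5.

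By the rule fixed for the whole set, the 8 genes outside it most like the mean of the 9 were Trpv4 (r = 0.788 over 12 pools), Fads3 (0.785), Fam163a (0.778), Dexi (0.775), Fbxo27 (0.772), Spry1 (0.757), Cngb1 (0.757) and Sh3gl1 (0.755). None of them was on an erythroid list.

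Vessels and other blood cells were measured beside the red cell genes. Of 15 endothelial genes tested, 2 were called lower and 0 higher, with a median of 0.01: Ramp2 (-0.34, edgeR adjusted p = 0.0228) and Tek, the angiopoietin receptor (-0.41, edgeR adjusted p = 0.0352). The median was 0.20 without the 4 libraries with Xist over 100 CPM. Summed endothelial levels were 519 to 783 CPM in control and 512 to 642 CPM in cKO pools. Of 14 macrophage genes, 4 were called higher and 0 lower, with a median of 0.45: Cx3cr1 (0.92), Laptm5 (0.74), C1qb (0.64) and Csf1r (0.44). DESeq2 called 6 macrophage genes higher and 1 lower, the latter being Mertk, a receptor for the uptake of dying cells (edgeR -0.41, adjusted p = 0.0566, 5 of 6 cKO pools below every control). Macrophage sums were 83.6 to 109.7 CPM in control and 110.2 to 129 CPM in cKO pools. Of 8 platelet genes tested (median 0.09), 0 were called by edgeR, 1 had an unadjusted p under 0.05 and 1 was called by DESeq2 (Clec1b). Of 9 other leukocyte genes tested (median 0.09), 0 were called by edgeR, 1 had an unadjusted p under 0.05 and 1 was called by DESeq2 (Mpo). Pf4 and Itga2b, the first platelet genes listed, had log2 fold changes of -0.22 and 0.15, and Ptprc and Coro1a, the first leukocyte genes, -0.08 and -0.02. Of 12 genes that define testis cells, 4 were called lower and 0 higher (Tcf21, Acta2, Cyp17a1 and Cyp11a1), with a median of -0.15, and DESeq2 also called Pdgfra lower.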

How the data were processed

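The deposited values are raw counts per gene, made by the authors from stranded paired-end RNA-seq reads. Their processing notes and methods name Trim Galore 0.6.7, STAR 2.5, the mm10 genome and featureCounts of Subread 1.5.0-p1 on curated RefSeq gene models. The counting options in the methods do not include the one that counts reads aligned to several places, which featureCounts leaves out by default, and this bears on the near-identical adult globins.

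The 12 libraries were grouped by their labels. Genes passing filterByExpr (minimum count 10, minimum total 15) were fitted in edgeR 4.0.16 (R 4.3.3) with TMM factors and the quasi-likelihood test of cKO against control, with no covariates and Benjamini-Hochberg adjustment over all genes tested. DESeq2 1.42.0, the authors' tool, and limma-voom (limma 3.58.1) were alternatives, beside other scalings and filters, copies summed, a replicate block, and libraries left out. The fits were checked on simulated data. No libraries agreed within sampling noise (smallest chi-square per degree of freedom within a group 2.36). Correlations used log2 CPM (prior count 2), except those over the 11 pools without cKO replicate 4, which used log2 of CPM plus 0.1.

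The 9 genes and all gene lists were chosen with earlier results of these data known. By rule, the genes named were the 9, the called genes of each list (at most 6) or else its first 2, and the 8 with the highest correlation to the mean of the 9. Also named were Nr2f2, Xist, Ddx3y, Alb, Afp, examples of testis markers, Klf1 and Gata1, and list genes called by DESeq2 only. The 2 libraries with Alb over 50 CPM, the correlations with Alas2 and the genes like Slc4a1 were chosen after seeing the data. 1 gene of the lists is not reported here by name.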

Additional observations from a re-analysis of the deposited data

Results flagged for a closer look

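The embryonic share of α-like globin RNA in cKO replicate 1 was 12.7%, and the next highest cKO pool was at 9.87%. The gap was 0.628 of the range of the 6 cKO pools, just past Dixon's critical value of 0.625. It was the only such value among the 40 groups of 6 examined, of which chance alone gives about 1 in 20.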

How the results depend on the processing

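Hbb-bs stayed lower in cKO testes under every alternative run, but its call did not always hold. It was -0.45 (edgeR adjusted p = 0.0692) without the 4 libraries with Xist over 100 CPM and -0.41 (0.0588) with copies summed, and from -0.52 to -0.39 with 1 pool left out. The call was lost without control replicate 2, 3, 4 or 6 or cKO replicate 1, 3 or 5 (adjusted p from 0.0508 to 0.0738). Hba-a2 was called by DESeq2 (-0.40) and without control replicate 1 (edgeR adjusted p = 0.0466), and ranged from -0.45 to -0.29 with 1 pool left out. Hba-x was -0.0811 without the 2 libraries with Alb over 50 CPM and from -0.08 to 0.13 with 1 pool left out, negative in 6 of 12: -0.0756, -0.03 and -0.02 without control replicates 2, 5 and 6, and -0.04, -0.04 and -0.0037 without cKO replicates 1, 4 and 6. Among genes not called, Hbb-bt was -0.12 without the 4 Xist libraries and -0.39 without the 2 Alb libraries, and Hbb-y and Hbb-bh1 were -0.49 and -0.40 without the latter. With 1 pool left out, Hbb-bt ran from -0.32 (without cKO replicate 4) to -0.13 (control replicate 4), Hbb-y from -0.45 (cKO replicate 6) to -0.20 (cKO replicate 3), and Hbb-bh1 from -0.32 (cKO replicate 6) to -0.12 (cKO replicate 3), with -0.15 without control replicate 4.

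Of the 9 genes, 2 were called by DESeq2, 0 without the Xist libraries, 0 with copies summed, and 0 to 2 with 1 pool left out. Over all genes, 1919 were called by DESeq2, 438 without the 2 Alb libraries, and 816 (without cKO replicate 4) to 3106 (without control replicate 1) with 1 pool left out. Called genes of the lists, 18 in all, were 28 by DESeq2, 8 without the Alb libraries and 12 to 30 with 1 pool left out. The cause was not tested.

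The median correlation with Slc4a1 was 0.463 within genotypes, -0.0096 without the Xist libraries, -0.105 without the 2 farthest pools and 0.669 with Alas2 as reference. Signs turned within genotypes for Hbb-bs (0.403) and Hbb-y (0.0981), without the Xist libraries for Hba-a2 (-0.0894) and Hbb-bh1 (-0.111), and without the 2 farthest pools for Hba-a1 (-0.031), Hba-a2 (-0.0955), Hba-x (-0.162) and Hbb-bh1 (-0.114).

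Deviations of same-numbered pools correlated from -0.334 to 0.242, and 0 of 6 controls correlated best with the cKO pool of their own number. The labels do not say whether same-numbered pools share a litter or batch, and these correlations cannot decide it. With the replicate block, 931 genes were called and Hbb-bs was -0.49 (edgeR adjusted p = 0.0124).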
